A study of Homo sapiens with 21 samples.

Results

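The comparison described here sets the effect of MYC overexpression beside the effect of SRSF7 overexpression, gene by gene, in HCC1806, an established human triple-negative breast cancer line. It used the 12 of 21 libraries that belong to 4 groups of 3, chosen by the names of their columns in both count tables. Cells labelled MYC-OE were set against the control of their own table, 3XCTL, and cells labelled as overexpressing SRSF7 (1xSRSF7) against theirs, 1xCtrl, whose label calls it a control with a single plasmid. All 4 groups were the same line, grown in DMEM with serum to near confluence and harvested by scraping, with polyA-selected stranded libraries. The vectors, their promoters, how many plasmids 3XCTL carried and whether a line was 1 clone are not given in the sources used here. Nothing in the labels says that the 3 libraries of a group came from separate cultures, so every p-value measures the spread between these libraries, which may be technical. Each effect is a log2 fold change within 1 table, and the difference is the MYC effect minus the SRSF7 effect, tested as 1 contrast in a single edgeR fit. The tables and the 2 kinds of control changed together, and cannot be told apart.

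MYC is a transcription factor that pairs with MAX, binds the word CACGTG and its relatives near many promoters, and is known for raising genes of ribosome making, nucleotide synthesis and the cell cycle. Its copies are often gained in triple-negative breast cancer. SRSF7 is an SR protein: it binds exons in pre-mRNA through an RNA recognition motif and a zinc knuckle, helps the spliceosome to choose splice sites, and takes part in the export and 3′ end processing of mRNA. SR proteins also limit their own mRNAs through exons that send the transcript to decay, so a gene-level count need not follow the amount of protein. Gene counts show RNA abundance and not splice choice.

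The 12 libraries held between 176784267 and 303323552 counts, and 3 counts, the limit that a count of 0 allows, correspond to 0.00978 to 0.0169 CPM (counts scaled to a common library size by TMM, per mega-count, the unit of every level below). A second control library stood apart in each table. The gap between GC-rich and GC-poor genes, in log2 CPM relative to the mean of the 12 libraries, was -0.41 in 3XCTL 2 against 0.294 and 0.261 in 3XCTL 1 and 3. It was 0.503 in 1xCtrl 2 against -0.513 and -0.781 in 1xCtrl 1 and 3. In MYC-OE this gap ran from 0.212 to 0.418, and in 1xSRSF7 from -0.339 to 0.186. Mitochondrial genes took 10.9 to 12.2% of counts in 3XCTL and 9.36 to 9.75% in MYC-OE, and 10.3 to 12.8% in 1xCtrl and 9.23 to 10.1% in 1xSRSF7, lower in both overexpressing groups with no overlap; the part of this in the shared genes was not tested. Markers of basal breast cancer cells summed to 5086 to 6240 CPM over the 12 libraries. Those of luminal cells summed to 736 to 1354 CPM, most of it from KRT8 (251.6 to 611.5) and KRT18 (350.9 to 585.5). AGR2 (68.31 to 138.6 CPM), GATA3 (19.08 to 28.52), FOXA1 (14.89 to 21.8) and ESR1 (7.912 to 11.53) were also expressed. PGR reached at most 1.466 CPM, and TFF1 stayed at or near 0. Fibroblast markers, carried by LUM, THY1 and COL1A1, summed to 54.3 to 57.2 CPM in 3XCTL, 39.2 to 40.6 in MYC-OE, 35.9 to 43.4 in 1xCtrl and 36.7 to 42.9 in 1xSRSF7. Of 27 markers of fibroblast, endothelial, immune and neural cells 19 averaged below 1 CPM, and SOX10 was at 0 in every library. The sum of 7 immune markers was 7.9 to 13.5 CPM in 3XCTL and 35.5 to 39.2 in MYC-OE, and 11.2 to 19.5 in 1xCtrl and 23.1 to 27.1 in 1xSRSF7; CD68 carried nearly all of it, while CD3E and LYZ stayed below 0.1 CPM. Endothelial markers, carried by EGFL7, summed to 6.68 to 14.5 CPM in 3XCTL and 23.9 to 27.7 in MYC-OE, and 5.38 to 22.7 in 1xCtrl and 11.7 to 26.1 in 1xSRSF7, with PECAM1 at or below 0.1515 CPM. Neural markers summed to 31.0 to 62.9 CPM over the 12 libraries. In bulk RNA fewer cells of a type and less RNA per cell cannot be told apart.

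MYC mRNA was higher in both overexpressing groups than in their own controls, with the larger rise in MYC-OE. Its level was 98, 92 and 94 CPM in the 3 libraries of 3XCTL and 173, 172 and 183 CPM in MYC-OE. The 1xCtrl libraries held 132, 147 and 126 CPM, and the 1xSRSF7 libraries 162, 158 and 171 CPM. Neither pair of groups overlapped. The MYC effect on MYC was 0.90 (SE 0.0627) on the log2 scale, the SRSF7 effect 0.28 (SE 0.0622), and they differed by 0.62 (SE 0.088, edgeR adjusted p = 0.000874). Most of this difference lay between the controls, which were 0.51 apart (1xCtrl relative to 3XCTL, edgeR adjusted p = 0.00012). The overexpressing lines were -0.11 apart (1xSRSF7 relative to MYC-OE, edgeR adjusted p = 0.332), which was not called. SRSF7 mRNA measured 294, 309 and 284 CPM in 3XCTL, 310.2, 307 and 311 in MYC-OE, 366, 361 and 376 in 1xCtrl and 444, 444 and 439 in 1xSRSF7. It thus rose by 0.27 (SE 0.0451, edgeR adjusted p = 0.00203) in the cells labelled for it and gave 0.07 (adjusted p = 0.317) in MYC-OE, but the difference of -0.20 did not pass the threshold (95% interval -0.34 to -0.06, adjusted p = 0.0688; -0.23, adjusted p = 0.0257 with total counts alone). SRSF2 fell in both, with effects of -0.48 and -0.38 (difference -0.10, adjusted p = 0.544), although part of its exon bases lie opposite MFSD11 and the strand setting of the counts is not known. SRSF3 passed in neither effect, with -0.06 and 0.09.

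Of 24271 genes tested, 7064 were called for the MYC effect (29.1%; 3593 higher and 3471 lower) and 4383 for the SRSF7 effect (18.1%; 2237 higher and 2146 lower). The 2 effects shared 2619 called genes, which is 37.1% of the MYC calls and 59.8% of the SRSF7 calls. Among these shared genes 2422 (9.98% of all tested) moved the same way, 1221 (5.03%) up and 1201 (4.95%) down, which makes 92.5% of the 2619. The other 197 (0.812%) moved in opposite directions, 106 with MYC-OE higher and 91 with MYC-OE lower. The difference itself was called for 2536 genes (10.4%), of which 1402 (5.78%) had the higher value for MYC and 1134 (4.67%) the lower, a share of 55.3% higher (69.7% with upper-quartile scaling, 48.7% with total counts alone, 49.4% with the GC trend removed and 48.3% without both second control libraries, so the majority turned with the setting). Of the 2422 genes moving together, 1961 showed no called difference and 461 did; in 439 of those 461 the MYC effect was the larger and in 22 the SRSF7 effect. A further 1376 genes were called for MYC and for the difference but not for SRSF7, and 427 for SRSF7 and the difference but not for MYC. Across all genes tested Pearson's r between the effects was 0.299 and Spearman's rho was 0.417, and across 11558 genes at 5 CPM or more r was 0.454; these are descriptions over genes, which are not independent, and the effects share no library. With the GC trend of each library removed, 5353 differences were called and 4289 genes moved together, and 2492 of the 2536 differences kept their call. Leaving out both second control libraries gave 5705 differences and 3512 genes moving together, with 2441 of the 2536 kept; the controls that remained then had GC gaps of 0.261 and 0.294 in 3XCTL and -0.513 and -0.781 in 1xCtrl, whose part in the larger count was not tested. Leaving out 1 library moved some counts by over 1.5 times. Without 1xCtrl 2 there were 1816 lower differences and 358 opposite genes. The lower differences numbered 755 without MYC-OE 3, 706 without 1xSRSF7 2 and 738 without 1xSRSF7 3, and the opposite genes 131, 106 and 113. The SRSF7 calls came to 2865 without 1xCtrl 1, with 121 opposite genes, and to 2583 without 1xSRSF7 3, with 1586 genes moving together.

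**Figure D1:**
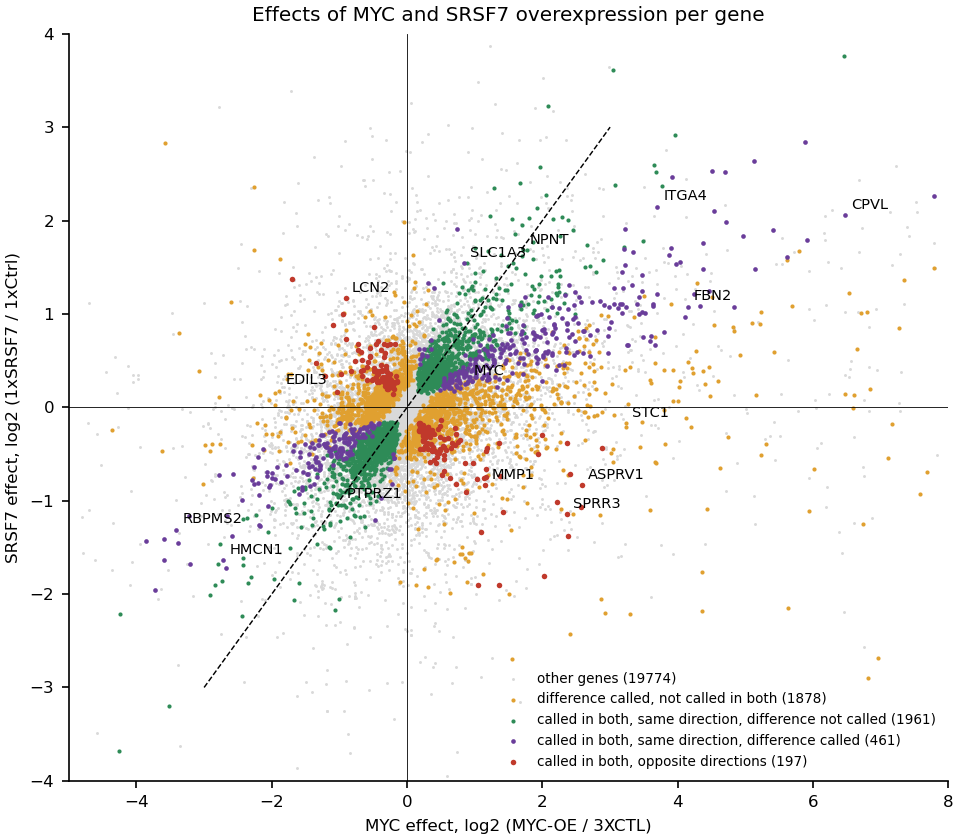
Each point is 1 of 24271 genes, with its MYC effect on the x axis and its SRSF7 effect on the y axis (both log2 fold changes), coloured by which tests it passed; the dashed line marks equal effects, and 164 genes lie outside the axes. Genes called in both (green, purple) run from lower left to upper right, purple points lie mostly on the MYC side of the line, and 197 red points occupy the opposite quadrants.

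Genes that rose in both overexpressing lines with no called difference were led by NPNT, NGFR, ANXA6, LRG1, LBH and TNNT1. These were the 6 highest by the smaller of their effects among genes at 5 CPM or more that were called in both, had no overlap between groups in either table and showed no called difference; over all genes, groups did not overlap for 47% in the MYC comparison and 33.7% in the SRSF7 comparison. NPNT encodes nephronectin, a matrix protein that binds integrins (ENSG00000168743.12, chromosome 4, 105894775 to 106004027, + strand, GRCh38). It measured 4.1, 3.58 and 3.78 CPM in 3XCTL and 12.9, 13.2 and 11.4 in MYC-OE. In the other table it stood at 5.05, 4.36 and 4.77 CPM in 1xCtrl and 15.7, 14.8 and 15 in 1xSRSF7. The overexpressing lines lay 0.28 apart (adjusted p = 0.0528) and the controls 0.31, with effects of 1.71 (SE 0.0879) and 1.68 (SE 0.0877) and a difference of 0.03 (95% interval -0.24 to 0.29). ANXA6, an annexin that binds membranes in a calcium-dependent way, was at 14.2, 12 and 12.5 CPM in 3XCTL and 34.3, 35.6 and 32.8 in MYC-OE. Its 1xCtrl libraries held 16.6, 15.9 and 15.3 CPM and its 1xSRSF7 libraries 35.3, 36.9 and 33.6. The effects were 1.41 and 1.15, and their difference of 0.26 (edgeR adjusted p = 0.142) did not pass after adjustment, although its own 95% interval, 0.04 to 0.48, lay above 0; intervals are not adjusted for the number of genes.

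NGFR, the low-affinity neurotrophin receptor, went from 6.07, 4.25 and 5.61 to 18.7, 21.5 and 18.5 CPM with MYC and from 9.19, 12.7 and 8.04 to 24.4, 21.8 and 25.7 with SRSF7. The second library of each control was the one farthest from its mates, low in 3XCTL and high in 1xCtrl. NGFR effects were 1.88 and 1.26; their difference of 0.62 (edgeR adjusted p = 0.137) passed once the GC trend was removed (0.66, adjusted p = 0.000882). LRG1, a secreted leucine-rich glycoprotein, rose from 11.8, 8.42 and 11.8 to 24.6, 26.7 and 24.3 CPM and from 9.96, 14.6 and 9.65 to 24.3, 21.2 and 25.7, with effects of 1.24 and 1.06. LBH, a transcription cofactor of WNT signalling in breast epithelium, rose from 5.01, 5.57 and 5.66 to 12.2, 10.2 and 10.2 CPM and from 4.27, 3.85 and 3.93 to 8.64, 8.99 and 9.19. Of the 6 it was the gene with the larger value for SRSF7, 1.15 against 1.01 for MYC (difference -0.15, adjusted p = 0.565). TNNT1, the slow skeletal troponin T, rose 2.83-fold and 1.87-fold, from means of 5.9 and 9.09 CPM in the controls. Its difference of 0.60 (edgeR adjusted p = 0.1) was not called, but was with the GC trend removed (0.62, adjusted p = 0.00244) and without 1xCtrl 3 (0.73, adjusted p = 0.0357).

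Genes that fell together were led by PTPRZ1, LINC02474, CYP27C1, GABPB1-AS1, JPH3 and MUC16, chosen in the same way. PTPRZ1, a receptor-type tyrosine phosphatase, measured 15, 16.2 and 15.1 CPM in 3XCTL and 7.58, 7.97 and 7.91 in MYC-OE. In 1xCtrl it was at 24.8, 21 and 24 CPM and in 1xSRSF7 at 11.3, 11.8 and 10.8. The 2 controls thus started from different levels, and each line fell from its own control with effects of -0.98 (SE 0.0745) and -1.04 (SE 0.0743). The 95% interval of the difference was -0.17 to 0.29. CYP27C1, a cytochrome P450 that acts on retinoids, fell from 14.7, 14.2 and 14.7 to 7.84, 8 and 8.78 CPM and from 16.3, 16.3 and 17.5 to 9.14, 8.86 and 9.08, with effects of -0.82 and -0.89. MUC16, the mucin that carries the CA125 antigen, fell from 75.5, 67.9 and 90.8 to 37.7, 34 and 39.2 CPM and from 51.5, 45.3 and 50.2 to 34, 27.9 and 25.4, with effects of -1.08 and -0.75 (difference -0.33, adjusted p = 0.282). JPH3, a junctophilin that ties the plasma membrane to the endoplasmic reticulum, gave -0.81 and -0.99. The long non-coding RNA LINC02474 gave -0.85 and -1.02, with a difference that was called only with library 1xCtrl 2 left out, alone or together with 3XCTL 2 (0.33, adjusted p = 0.0401 with both out). GABPB1-AS1, a transcript antisense to GABPB1, gave -1.22 and -0.81; whether the counting used strand is not known.

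**Figure D2:**
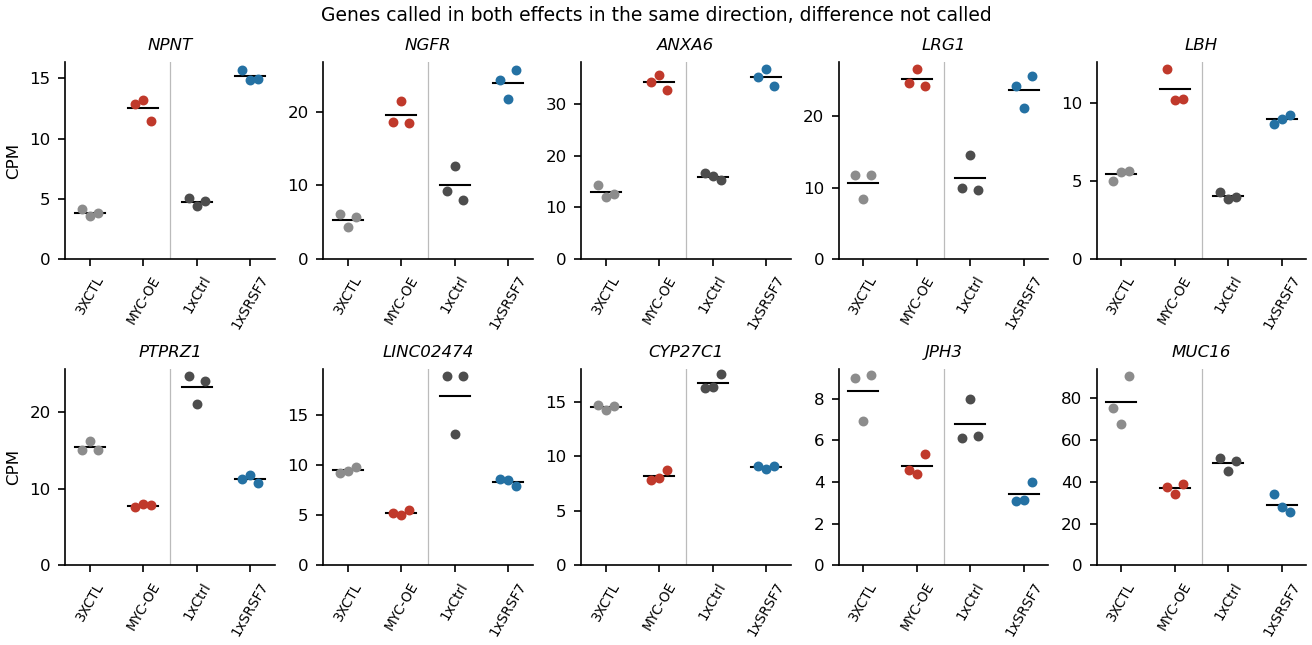
Levels in CPM (y axes, from 0) of 10 genes in the 3 libraries of each group, with a bar at the group mean; grey points are controls, red MYC-OE and blue 1xSRSF7, and the vertical line separates the 2 tables. In each panel both overexpressing groups sit on the same side of their own control with no overlap, for example NPNT at 11.4 to 15.7 CPM against 3.58 to 5.05 in the controls.

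The promoters of 4 leading genes are shown because MYC binds the word CACGTG, and because the AP-1 word TGANTCA was looked for in genes of squamous and stress response after their values were seen. RefSeq promoters (GRCh38.p14) could be matched for 13995 of the genes tested; of the 24 genes named as shared or as most differing, 19 were matched. Of these 19, 14 held neither word and 5 held one (ANXA6, ASPRV1, SPRR3, LCN2 and GABPB1-AS1), and the 4 shown were picked with these matches in view. The window matched for ASPRV1 (chr2:70086224-70086523) lies far upstream of the gene span used here (69960089 to 69962265). Its word may therefore belong to another start. The MUC16 window (chr19:9065702-9066001) also lies far upstream of its span, which ends at 8981342. The 250 bases before the start site are printed 5′ to 3′ on the strand of the gene, ANXA6 at chr5:151157780-151158029 (- strand), CPVL at chr7:29195268-29195517 (- strand), SPRR3 at chr1:153001499-153001748 (+ strand) and LCN2 at chr9:128149203-128149452 (+ strand). Capitals mark CACGTG in ANXA6, which begins at -50 counted from the start site, and TGANTCA in SPRR3, from -170, and LCN2, from -52. CPVL, the gene at 5 CPM or more with the highest difference, held neither word in this window.
ANXA6: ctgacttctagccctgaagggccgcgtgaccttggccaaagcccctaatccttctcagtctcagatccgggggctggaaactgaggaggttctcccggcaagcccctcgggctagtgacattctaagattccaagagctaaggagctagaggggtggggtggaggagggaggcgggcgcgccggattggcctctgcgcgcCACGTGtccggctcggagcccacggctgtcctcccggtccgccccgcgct
CPVL: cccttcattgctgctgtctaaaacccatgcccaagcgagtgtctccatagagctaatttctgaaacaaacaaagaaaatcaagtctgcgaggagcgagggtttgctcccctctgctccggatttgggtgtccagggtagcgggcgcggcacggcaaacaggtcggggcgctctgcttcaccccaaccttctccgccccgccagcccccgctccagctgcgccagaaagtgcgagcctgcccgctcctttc
SPRR3: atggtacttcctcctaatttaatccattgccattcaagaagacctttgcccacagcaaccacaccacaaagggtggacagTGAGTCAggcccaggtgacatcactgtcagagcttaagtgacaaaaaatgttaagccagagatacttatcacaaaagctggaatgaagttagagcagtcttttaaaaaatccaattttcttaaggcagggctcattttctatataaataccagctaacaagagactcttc
LCN2: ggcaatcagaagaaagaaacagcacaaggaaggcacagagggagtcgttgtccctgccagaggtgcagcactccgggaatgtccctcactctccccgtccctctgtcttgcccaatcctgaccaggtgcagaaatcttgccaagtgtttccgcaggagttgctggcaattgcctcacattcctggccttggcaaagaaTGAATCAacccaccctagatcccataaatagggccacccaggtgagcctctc
In the window of 300 bases (250 before to 50 after the start, both strands), CACGTG occurred in 9.47% of promoters of tested genes and in 7.43% of all RefSeq promoters given. Its share was 8.45% among genes that rose in both effects, 8.32% among genes that fell in both, 9.27% among genes with a higher difference and 10.1% among those with a lower one. For TGANTCA the shares were 5.52% over tested genes, 4.72% and 5.2% among genes that rose or fell in both, and 6.59% and 5.48% among genes with a higher or lower difference. These shares were not tested, and a word in a promoter is a description and not a binding site.

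Among genes that moved together but by different amounts, the MYC effect was nearly always the larger. ITGA4, the integrin alpha 4 chain, measured 0.938, 0.747 and 0.711 CPM in 3XCTL and 10.4, 11 and 9.63 in MYC-OE, and 1.65, 1.55 and 1.81 in 1xCtrl and 8.3, 7.45 and 6.49 in 1xSRSF7. Both lines ended several-fold above their controls, by 3.69 and 2.15, and the effects differed by 1.54 (SE 0.18, edgeR adjusted p = 0.000216). SLC40A1, the iron exporter ferroportin, rose by 2.48 and 1.23, and ADD2, an adducin of the membrane skeleton, by 3.48 and 1.24. For both genes the level in 1xCtrl was higher than in 3XCTL: ADD2 held 2.13 CPM in 3XCTL and 8.22 in 1xCtrl, but 23.8 in MYC-OE and 19.5 in 1xSRSF7. Downward, HMCN1, the large matrix protein hemicentin, fell from 32.4, 34 and 34.5 to 5.49, 5.66 and 4.22 CPM and from 27.6, 21.5 and 26.7 to 7.67, 8.81 and 7.95. Its effects of -2.71 and -1.63 differed by -1.08 (edgeR adjusted p = 0.00143). EDNRB, an endothelin receptor, fell, with effects of -2.18 and -1.27, PLCXD3, a phospholipase C-like protein, gave -2.18 and -1.26, and RBPMS2, an RNA-binding protein, gave -3.41 and -1.31.

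Among genes with a mean of 5 CPM or more that met the rule, the largest differences in favour of MYC were those of CPVL, SPRR3, ASPRV1, STC1, SPOCK1 and TRPC6. CPVL, a serine carboxypeptidase (ENSG00000106066.15, chromosome 7, 28995231 to 29195451, - strand), held 0.164, 0.311 and 0.344 CPM in 3XCTL and 24.4, 23.9 and 23.5 in MYC-OE. In the second table it measured 4, 3.67 and 3.98 CPM in 1xCtrl and 16.4, 16.4 and 15.6 in 1xSRSF7. It rose in both lines, by 6.47 and 2.05, and the difference of 4.42 (SE 0.246, edgeR adjusted p = 6.97e-07) was the highest of these. The 2 controls themselves lay apart by 3.85, and the overexpressing lines by -0.57 (1xSRSF7 relative to MYC-OE). STC1, the secreted glycoprotein stanniocalcin, was called for MYC alone. It measured 1.22, 1.06 and 1.12 CPM in 3XCTL and 10.6, 10.8 and 10.6 in MYC-OE. The 1xCtrl libraries held 12.8, 8.32 and 11.4 CPM and the 1xSRSF7 libraries 10.6, 9.85 and 8.38. Only 3XCTL stood low; the other 3 groups overlapped, and the difference of 3.41 (edgeR adjusted p = 1.03e-06) set a MYC effect of 3.24 against an SRSF7 effect of -0.17 (adjusted p = 0.452). SPOCK1, the proteoglycan testican, rose by 3.60 with MYC and gave 0.26 (adjusted p = 0.077) with SRSF7, from means of 1.11 CPM in 3XCTL and 5.71 in 1xCtrl. TRPC6, a cation channel, rose by 2.89 and fell by 0.43.

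By the same rule the lowest differences, where the MYC value was the more negative, belonged to RBPMS2, LCN2, EDIL3, EPB41L4A, GREM1 and SMAD6. EDIL3, a matrix protein that binds integrins, measured 62.8, 61.8 and 59.3 CPM in 3XCTL and 17.1, 17.2 and 15.4 in MYC-OE. It stood at 19.4, 14 and 17 CPM in 1xCtrl and 18.3, 19.5 and 19.2 in 1xSRSF7. Here 3XCTL stood high. The 1xCtrl values overlapped those of both overexpressing lines, and 1xSRSF7 lay just above MYC-OE. The MYC effect was -1.89, the SRSF7 effect 0.18 (adjusted p = 0.243) and the difference -2.06 (SE 0.139, edgeR adjusted p = 2.46e-06). SMAD6, an inhibitory SMAD of the BMP pathway, was also high in 3XCTL alone, at 29.7, 26.2 and 30.3 CPM in 3XCTL, 11.6, 10.4 and 11.3 in MYC-OE, 11.2, 11.3 and 11.3 in 1xCtrl and 11.8, 11.4 and 12.4 in 1xSRSF7; 1xCtrl and 1xSRSF7 lay close without overlapping. GREM1, a secreted BMP antagonist, fell by 1.21 with MYC and rose by 0.33 with SRSF7, from a mean of 38.4 CPM in 3XCTL and 17.5 in 1xCtrl. EPB41L4A, a FERM-domain protein of the membrane skeleton, fell by 1.35 and rose by 0.48.

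Genes called in both effects with opposite signs included barrier and protease genes that rose with MYC and fell with SRSF7. ASPRV1, the skin aspartic protease that processes filaggrin (ENSG00000244617.2, chromosome 2, 69960089 to 69962265, - strand), measured 2.39, 2.5 and 2.67 CPM in 3XCTL and 15, 14.1 and 16.1 in MYC-OE. It was at 3.44, 3.76 and 3.73 CPM in 1xCtrl and 2.24, 2.19 and 1.73 in 1xSRSF7. The controls lay 0.53 apart and the lines -2.88 (1xSRSF7 relative to MYC-OE). The effects were 2.58 and -0.83, a difference of 3.41 (SE 0.155, edgeR adjusted p = 1.33e-07). SPRR3, a precursor of the cornified envelope, rose from 3.08, 3.78 and 2.48 to 16.6, 15.6 and 15.8 CPM and fell from 4.15, 3.45 and 5.4 to 1.83, 2.5 and 1.55, with effects of 2.36 and -1.14. MMP1, the interstitial collagenase, rose from 329, 389 and 391.9 to 810.5, 793 and 866 CPM and fell from 1190, 1002 and 1282 to 641, 689 and 615. Its controls differed by 1.65 on the log2 scale, at 370.2 and 1158 CPM, and the effects of 1.15 and -0.84 brought the lines to 823 and 648. NPFFR2, a neuropeptide FF receptor, rose by 0.87 and fell by 0.91, from 3.08 and 10.2 CPM to 5.62 and 5.45.

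In the other direction LCN2, CXXC5, ANKRD1 and PLAAT3 fell with MYC and rose with SRSF7. LCN2, the lipocalin that binds bacterial siderophores (ENSG00000148346.12, chromosome 9, 128149071 to 128153455, + strand), measured 20.2, 16.9 and 18.6 CPM in 3XCTL and 9.56, 10.3 and 9.77 in MYC-OE. Its 1xCtrl libraries were at 8.98, 9.55 and 6.58 CPM and its 1xSRSF7 libraries at 21, 16.6 and 18.9. MYC-OE resembled 1xCtrl and 1xSRSF7 resembled 3XCTL, with effects of -0.91 and 1.17 and a difference of -2.08 (SE 0.186, edgeR adjusted p = 2.9e-05). PLAAT3, a phospholipase and acyltransferase, fell from 50, 49.8 and 47.5 to 31.6, 31.2 and 30.4 CPM and rose from 21, 26.8 and 20.9 to 32.7, 32.4 and 32.7, and the lines then differed by 0.07 (adjusted p = 0.695). CXXC5, a CXXC zinc-finger protein, gave -0.72 and 0.62, and ANKRD1, a target of YAP and TAZ, -0.55 and 0.63.

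A smaller set of genes responded more to SRSF7 than to MYC, 22 of the 461 that moved together by different amounts among them. SLC1A3, a glutamate and aspartate transporter, measured 33.8, 36.5 and 32.3 CPM in 3XCTL and 61.8, 63.2 and 59.3 in MYC-OE, and 26.8, 24 and 28.7 in 1xCtrl and 83.7, 75.3 and 72.7 in 1xSRSF7. It rose by 0.84 and 1.54, with a difference of -0.70 (SE 0.109, edgeR adjusted p = 0.00158). PLAAT4, a relative of PLAAT3, rose by 0.40 and 1.28. CDH11, a cadherin of mesenchymal cells, fell from 29.5, 22 and 26.5 to 11.5, 10.7 and 11.7 CPM with SRSF7 and from 8.1, 8.46 and 9.26 to 6.15, 6.15 and 6.36 with MYC, with effects of -1.20 and -0.47. HAS2, a hyaluronan synthase, fell from a mean of 99 to 56 CPM with SRSF7 and from 63.4 to 54.1 with MYC, with effects of -0.82 and -0.23. UPK2, a uroplakin of the urothelial membrane, gave 1.28 with SRSF7 and 0.10 with MYC. In 1xCtrl it measured 6.33, 10.8 and 5.72 CPM, and its difference of -1.17 (edgeR adjusted p = 0.0325) was lost in 9 of the 12 fits that left out 1 library. The pseudogene CHP1P2, whose reads may belong to CHP1, gave -0.97 and -0.38, and its difference was lost in 4 of those 12 fits.

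**Figure D3:**
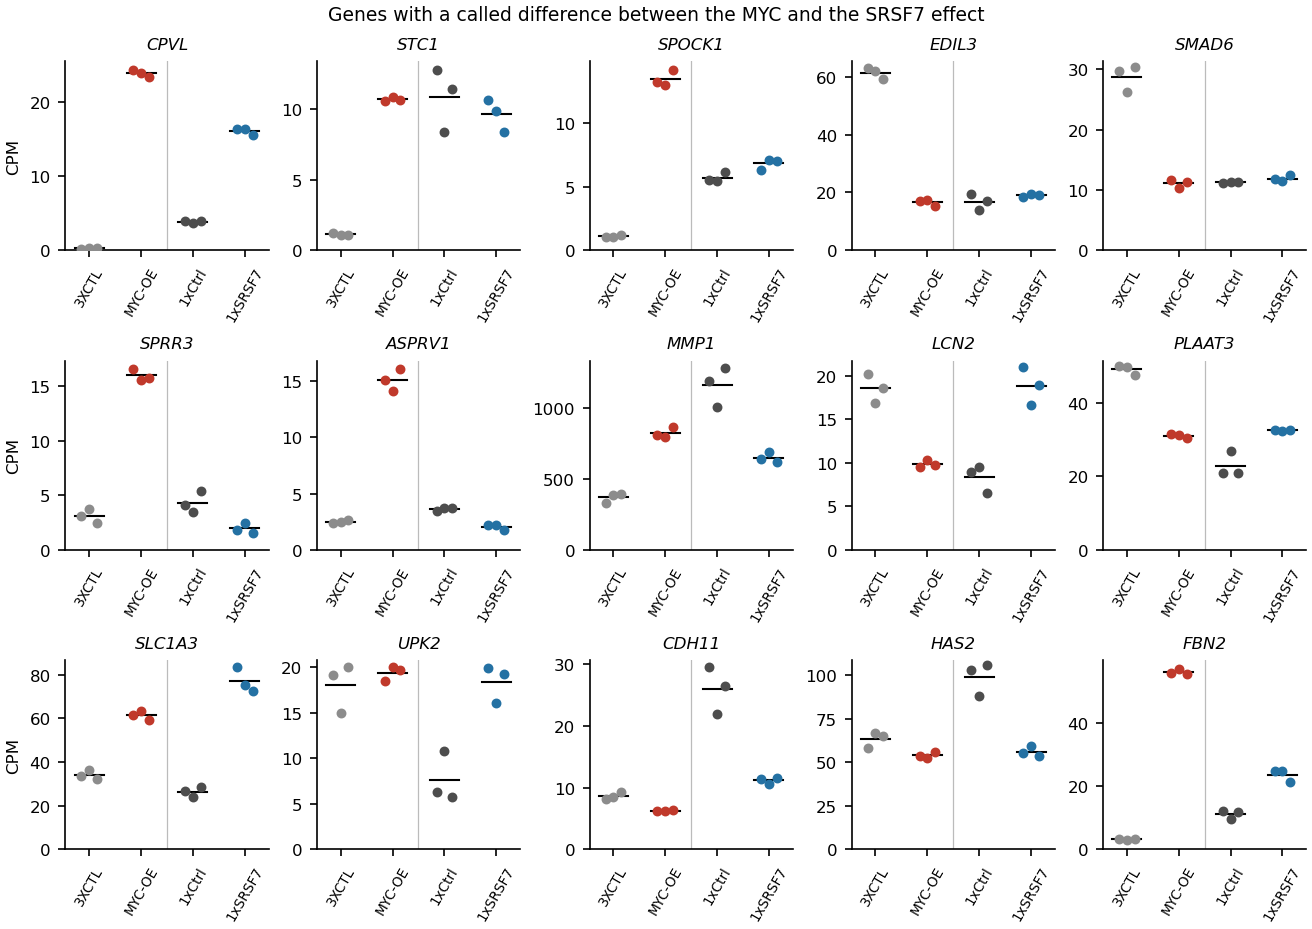
Levels in CPM (y axes, from 0) of 15 genes with a called difference, in the 3 libraries of each group with a bar at the mean; colours and the line between tables are those of the plot of shared genes. In STC1, EDIL3 and SMAD6 the 3XCTL points stand far from the other groups, ASPRV1 and SPRR3 differ mostly ASPRV1 and SPRR3 through the overexpressing lines, and for MMP1 and PLAAT3 the controls lie on either side of both lines.

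In most genes with a called difference the controls lay apart. The difference equals 1xCtrl over 3XCTL minus 1xSRSF7 over MYC-OE, so each of its parts could be read from the same fit. Over all 24271 genes 22.7% differed between the 2 controls (13.1% higher and 9.54% lower in 1xCtrl) and 12.5% between the 2 overexpressing lines (8.03% higher and 4.48% lower in 1xSRSF7). Of the 2536 genes with a called difference, 1487 (58.6%) differed between the controls and not between the lines, and 527 (20.8%) between the lines and not the controls. Both pairs differed for 398 (15.7%) and neither for 124 (4.89%). Over all genes tested these 4 patterns took 16.7%, 6.56%, 5.95% and 70.8%, so controls alone outnumbered lines alone there too. The control gap was the larger part in 70.7% of the 2536 genes, compared with 58.4% of all genes tested. This share was 79.9% among the 1402 genes with a higher difference and 59.4% among the 1134 with a lower one. With the GC trend removed, the controls alone differed for 2774 of 5353 genes (51.8%) and the lines alone for 1072 (20.0%), against 22.0% and 8.89% of all genes. Without both second control libraries these counts were 3282 of 5705 (57.5%) and 842 (14.8%), against 22.8% and 8.86% of all genes. A gap between controls can be a gap between the tables, and which it is cannot be told apart.

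**Figure D4:**
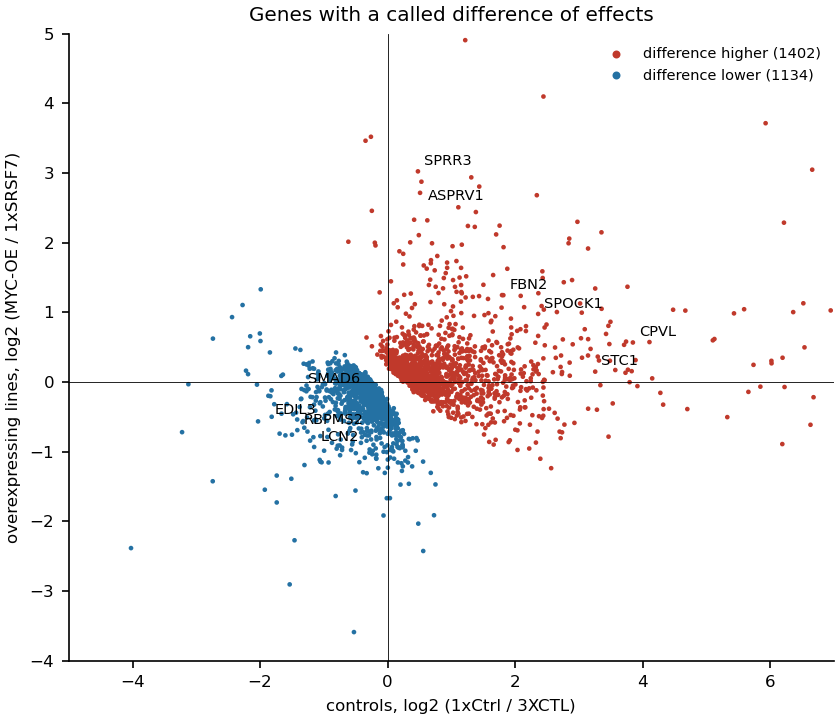
The 2536 genes with a called difference, with the log2 ratio of 1xCtrl to 3XCTL on the x axis and that of MYC-OE to 1xSRSF7 on the y axis, so that the 2 coordinates of a point add up to its difference; 14 genes lie outside the axes. STC1, CPVL, EDIL3 and SMAD6 lie near the x axis, and ASPRV1 and SPRR3 near the y axis.

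Gene lists were set beside these shares, with 29.1% of all genes called for MYC, 18.1% for SRSF7 and 10.4% for the difference, and a median difference over all genes of -0.01. Members named here beyond the extremes of each list were picked after their values were seen. Matrix glycoproteins and collagens had more higher than lower differences: of 27 tested, 14 rose and 3 fell with MYC, 6 rose and 5 fell with SRSF7, and 11 had a higher and 3 a lower difference (median 0.53). Without both second control libraries 11 were higher and 4 lower (median 0.31), and with the GC trend removed 14 and 3 (median 0.55). FBN2, a fibrillin, went from 3.23, 3.06 and 3.21 to 55.8, 57 and 55.3 CPM with MYC and from 12.2, 9.53 and 11.7 to 24.7, 24.8 and 21.2 with SRSF7, with effects of 4.14 and 1.08 (for the difference, adjusted p = 1.14e-07). FN1, fibronectin, rose in both, by 1.74 and 1.18. The laminin chain LAMA3 rose by 0.48 with MYC and fell by 0.44 with SRSF7. TNC, tenascin C, fell with SRSF7 (effect -1.31) and gave 0.15 (adjusted p = 0.335) with MYC. NPNT, FN1 and HMCN1 moved the same way in both. Of the fibroblast markers, COL1A2, COL3A1, DCN and PDGFRA averaged below 1 CPM in every group, and LUM was highest in 3XCTL (38.1 CPM, against 9.08 in MYC-OE, 20.3 in 1xCtrl and 12.2 in 1xSRSF7). THY1, another fibroblast marker, averaged 6.41 CPM in 3XCTL and 20.3 in MYC-OE, and 7.80 in 1xCtrl and 16.7 in 1xSRSF7. The part of these markers in the matrix counts was not tested.

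Proteases of the matrix and of plasminogen activation gave 11 higher and 1 lower for MYC, 3 and 3 for SRSF7, and 9 higher and 1 lower differences among 17 tested (median 0.56). The urokinase gene PLAU rose in both, from a mean of 175 to 338 CPM and from 298 to 390.3, though part of its exon bases lie opposite C10orf55. MMP2, gelatinase A, rose by 1.93 and 0.99. TIMP2, an inhibitor of metalloproteinases, was the list's lowest difference: it fell from 342, 338 and 346 to 290.3, 308 and 281 CPM and rose from 276, 283 and 274 to 342, 324 and 322. Among 13 integrin chains tested 7 rose and 2 fell with MYC, 1 rose and 1 fell with SRSF7, and 5 had a higher difference. ITGA6, a laminin receptor chain, rose from a mean of 930.3 to 2168 CPM and held 1615 and 1665 in the other table, a difference of 1.18 (edgeR adjusted p = 1.82e-05). ITGB8 gave -0.69 and -0.28, with a difference of -0.41 (adjusted p = 0.0825).

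Keratins and squamous differentiation genes were the list with most opposite calls: 9 rose and 4 fell with MYC, 2 rose and 6 fell with SRSF7, 4 were called with opposite signs, and 9 of 27 had a higher and 0 a lower difference. For that 0, edgeR left 1 gene at an unadjusted p under 0.05, and DESeq2 and limma-voom called 0. With the GC trend removed 13 had a higher and 4 a lower difference, and without both second control libraries 11 and 10. The SRSF7 counts changed too: 7 rose and 10 fell with the GC trend removed, and 9 rose and 7 fell without both second control libraries. Genes rising in both effects numbered 5 in each of these settings and 0 in the main fit, so the SRSF7 direction of this list depended on the setting. SPRR1B, a cornified envelope precursor, measured 4.97, 4.36 and 4.89 CPM in 3XCTL, 24.7, 23.4 and 25.2 in MYC-OE, 6.17, 7.16 and 5.67 in 1xCtrl and 5.18, 4.14 and 5.24 in 1xSRSF7. It rose by 2.37 with MYC and fell by 0.38 with SRSF7, and reads may be split with its near copy SPRR1A. KRT1, the suprabasal keratin, did likewise, with effects of 2.22 and -1.01. The desmosome genes DSP and DSC3 rose by 0.36 and 0.30 with MYC and fell with SRSF7, giving -0.46 and -0.45. Luminal markers, KRT8 and KRT18 among them, summed to 1086 to 1239 CPM in 3XCTL, 1344 to 1354 in MYC-OE, 736 to 954 in 1xCtrl and 1164 to 1265 in 1xSRSF7, and their part in these counts was not tested. KRT7, a simple epithelial keratin, was the list's lowest value, -0.38 (adjusted p = 0.469), and passed with the GC trend removed (-0.36, adjusted p = 0.000794) and without 1xCtrl 2 (-0.66, adjusted p = 0.0376). Of 14 epithelial-mesenchymal markers and regulators 6 rose and 3 fell with MYC and 0 passed with SRSF7. There edgeR left 2 genes at an unadjusted p under 0.05, DESeq2 called 1 and limma-voom 0. With the GC trend removed 1 rose and 1 fell with SRSF7, and the same counts came without both second control libraries. VIM, vimentin, measured 0.194, 0.245 and 0.197 CPM in 3XCTL and 3.27, 3.58 and 4.27 in MYC-OE, and 2.67, 2.83 and 2.84 in 1xCtrl and 2.38, 2.76 and 2.54 in 1xSRSF7. As with STC1 only 3XCTL stood low, and the difference was 4.25 (edgeR adjusted p = 1.33e-07). Part of its exon bases lie opposite VIM-AS1. CDH2, N-cadherin, gave -0.31 with MYC and 0.19 (adjusted p = 0.0881) with SRSF7.

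EGF family ligands bind EGFR and its relatives at the cell surface. Of 12 ligands and receptors tested, 6 rose and 2 fell with MYC, 4 fell with SRSF7, and 4 had a higher difference. AREG, amphiregulin, measured 29.5, 33.6 and 29.9 CPM in 3XCTL and 53.7, 48.7 and 52.7 in MYC-OE, and 47.8, 44.6 and 51.1 in 1xCtrl and 43.5, 42.2 and 43.8 in 1xSRSF7, a difference of 0.89 (edgeR adjusted p = 0.000135) of which 0.63 lay between the controls. EGF itself fell in both (-0.44 and -0.45), with a 95% interval of -0.22 to 0.22 for the difference. The receptor ERBB2 gave -0.08 and 0.00 and passed in neither. Among 18 AP-1 and immediate early genes, which report growth factor and stress signalling, 7 rose and 2 fell with MYC, 1 rose and 3 fell with SRSF7, and 3 had a higher and 1 a lower difference. ATF3, a stress-induced factor, rose from 3.05, 3.45 and 3.56 to 7.46, 7.38 and 8 CPM and fell from 6, 6.24 and 6.66 to 4.34, 4.83 and 4.83, with effects of 1.18 and -0.43. FOSL1, the AP-1 subunit FRA1, rose by 0.96 with MYC and gave 0.29 (adjusted p = 0.0744) with SRSF7. EGR1 fell by 0.95 with MYC and gave -0.02 (adjusted p = 0.912) with SRSF7, and SPRY4, a feedback inhibitor of receptor signalling, fell, with effects of -0.59 and -0.57.

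TGF-beta and BMP pathway genes, 23 tested, gave 9 higher and 8 lower with MYC, 6 and 1 with SRSF7, and 5 higher and 4 lower differences. Among ligands, BMP4 rose from 5.22, 6.45 and 5.65 to 9.77, 9.08 and 10.1 CPM with SRSF7 and gave -0.17 (adjusted p = 0.19) with MYC. The receptor TGFBR2 rose in both, by 0.45 and 0.35. LTBP2, a binding protein of latent TGF-beta, rose by 1.00 with MYC and gave 0.09 (adjusted p = 0.736) with SRSF7. The BMP target ID4 fell by 0.47 with MYC and rose by 0.33 with SRSF7. SMAD6, ID4 and BMP4 had lower differences, beside 5 higher ones in the list. They arose differently, since SMAD6 was high in 3XCTL alone while BMP4 rose in 1xSRSF7.

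The immune marker sums given above were higher in both overexpressing groups with no overlap, and their part in the next counts was not tested; PTPRC, the pan-leukocyte marker, stayed at or below 0.5415 CPM in every library. Cytokines and chemokines rose more often than they fell in both comparisons: of 23 tested, 12 rose and 4 fell with MYC, 8 rose and 1 fell with SRSF7, 5 rose in both, and 6 had a higher and 3 a lower difference. CXCL8, the neutrophil chemokine interleukin-8, rose from 10.3, 9.76 and 9.67 to 15, 15.7 and 13.2 CPM and from 17.6, 12.7 and 17.9 to 25, 25.8 and 24.6, by 0.56 and 0.65. CCL20, which attracts CCR6-bearing lymphocytes, rose at low level by 1.70 and 1.62. CXCL1, a relative of CXCL8, was called in opposite directions. It fell from 17.8, 17 and 18.5 to 10.2, 9.65 and 10.1 CPM and rose from 17.9, 15.6 and 20 to 23.1, 22.9 and 24.1, with controls 0.01 apart (adjusted p = 0.979). IL1A and IL1B, the interleukin-1 ligands, rose with MYC by 0.98 and 1.20; with SRSF7 IL1B rose by 0.55 and IL1A gave 0.19 (adjusted p = 0.247). CCL5 rose by 4.23 and 1.21, from means of 0.145 and 0.747 CPM in the controls.

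Of 26 interferon-stimulated genes tested, 14 rose and 3 fell with MYC, 8 rose and 2 fell with SRSF7, 7 rose in both, and 2 had a higher and 2 a lower difference. IFI27 rose by 1.25 and 0.80, and IFIT3, which binds viral RNA complexes, by 0.74 and 0.65 (95% interval of the difference -0.24 to 0.41). OASL, an oligoadenylate synthetase-like protein, rose from 2.3, 2.08 and 2.07 to 11.2, 11.3 and 11.3 CPM and from 4.05, 4.31 and 4.31 to 7.49, 6.95 and 6.96, a difference of 1.64 (edgeR adjusted p = 2.27e-06). IFIT5 fell by 0.38 with MYC and gave 0.11 (adjusted p = 0.47) with SRSF7, and its difference was lost in 7 of the 12 fits without 1 library. In the MHC class I pathway, 12 tested, 4 rose and 1 fell with MYC, 5 rose with SRSF7 and 3 rose in both. With the GC trend removed 3 rose and 1 fell with SRSF7, and 1 rose in both. Without both second control libraries these counts were 8, 1 and 6. PSMB9, an immunoproteasome subunit, rose by 0.41 and 0.64.

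The integrated stress and unfolded protein responses adjust translation and folding capacity when amino acids or the endoplasmic reticulum are under strain. Of 22 genes tested 12 rose with MYC, 8 rose and 2 fell with SRSF7, 7 rose in both, and 5 had a higher difference. PHGDH, the first enzyme of serine synthesis, rose by 0.33 and 0.40, from 131, 117 and 125 to 157, 162 and 152 CPM and from 114, 136 and 108 to 158, 154 and 160.1. ASNS, asparagine synthetase, rose by 0.96 and 0.28, although much of its exon sequence is shared with another annotated gene of the same strand. HSPA5, the chaperone BiP, rose by 0.60 with MYC and gave 0.11 (adjusted p = 0.245) with SRSF7. DDIT3, the factor CHOP, gave -0.19 and 0.03 and passed in neither.

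Splicing genes were described next, since SRSF7 is itself a splicing factor. Of 14 SR and TRA2 proteins, 3 rose and 5 fell with MYC, 2 rose and 5 fell with SRSF7, and 3 fell in both, with 1 higher and 1 lower difference. SRSF6 rose from 203, 229 and 207 to 272, 268 and 265 CPM and gave 0.00 (adjusted p = 0.976) with SRSF7, and its difference of 0.34 (edgeR adjusted p = 0.042) was lost in 10 of the 12 fits without 1 library. Of 8 kinases and importers of SR proteins, 3 rose and 1 fell with MYC, 1 fell with SRSF7 and 3 had a higher difference. CLK1, a kinase that phosphorylates SR proteins in the nucleus, rose from 77, 83.3 and 75.4 to 96.1, 100 and 91.9 CPM and fell from 126, 110.2 and 135 to 100.5, 106 and 103, effects of 0.29 and -0.26. In the core spliceosome 4 of 24 rose and 3 fell with MYC, 9 rose and 2 fell with SRSF7, and 2 had a lower difference. SNRPD2, a Sm core protein, rose by 0.40 and 0.49. PRPF19, a ubiquitin ligase of the spliceosome, rose by 0.36 with SRSF7 and gave 0.02 (adjusted p = 0.882) with MYC, a difference that was lost in 10 of the 12 fits without 1 library.

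Ribosome making, nucleotide synthesis and glycolysis are programmes that MYC is known for. Of 26 nucleolar genes of ribosome making 3 fell with MYC and 3 rose and 3 fell with SRSF7, and 1 differed. For MYC 0 rose: edgeR left 1 at an unadjusted p under 0.05, and DESeq2 and limma-voom called 0. With the GC trend removed 2 rose and 6 fell with MYC, and without both second control libraries 2 and 5. The gene with a called difference was FBL, the fibrillarin methyltransferase, which fell from 166, 161 and 155 to 90.3, 90.2 and 88.8 CPM and from 139.9, 136 and 139 to 115, 127 and 126, with effects of -0.84 and -0.18. Of 24 genes of nucleotide, folate and polyamine synthesis 6 rose and 1 fell with MYC, 8 rose and 1 fell with SRSF7 and 4 rose in both, with 2 lower differences. SMS, spermine synthase, rose by 0.46 and 0.40. In glycolysis and lactate transport 8 of 17 rose and 1 fell with MYC, 6 rose with SRSF7 and 3 rose in both. PGK1, a glycolytic kinase, rose by 0.34 and 0.25, while SLC2A1, the glucose transporter GLUT1, rose by 0.38 with MYC and gave 0.03 (adjusted p = 0.854) with SRSF7. The SLC2A1 difference of 0.35 (edgeR adjusted p = 0.0895) was not called. It passed in some settings, among them GC trend removal (0.37, adjusted p = 0.00171), upper-quartile scaling (0.41, adjusted p = 0.043) and all 21 libraries in the fit (0.36, adjusted p = 0.0247). Within the MYC network, 12 tested, 4 rose and 1 fell with MYC and 2 rose with SRSF7. The higher differences there were those of MYC itself and of MXD1, a MAX partner that opposes MYC, which rose by 0.59 with MYC and gave 0.03 (adjusted p = 0.807) with SRSF7.

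Among 14 CDK inhibitors, G1 cyclins and their kinases, 3 rose and 3 fell with MYC, 4 rose with SRSF7, and 4 had a lower difference. CCND1, cyclin D1, fell from 294, 279 and 269.7 to 243, 232 and 228 CPM and rose from 222, 225 and 222 to 251.4, 261 and 278, with effects of -0.26 and 0.24. CDK4 rose by 0.31 with SRSF7 and gave -0.08 (adjusted p = 0.365) with MYC, and CCNE2, cyclin E2, fell by 0.58 with MYC; both overlap genes of the opposite strand (TSPAN31 and INTS8). The inhibitor CDKN1A, a p53 target, rose in both, from 18.7, 14.7 and 16.9 to 30.3, 29.9 and 29.4 CPM and from 19.7, 23.2 and 20.3 to 29.2, 28.8 and 28.6. Its difference of 0.38 (edgeR adjusted p = 0.0681) was called with the GC trend removed (0.40, adjusted p = 0.00784) and without 3XCTL 1 (0.46, adjusted p = 0.0311). Among 12 p53 targets 2 rose with MYC and 1 with SRSF7, and for the difference edgeR, DESeq2 and limma-voom called 0, with 1 at an unadjusted p under 0.05. With the GC trend removed 1 p53 target had a higher and 1 a lower difference, and without both second control libraries 1 and 3. Of 24 genes of mitosis and DNA replication 5 rose and 3 fell with MYC, 6 rose and 1 fell with SRSF7, and 2 had a higher and 3 a lower difference. The mitotic kinase AURKA rose by 0.67 with MYC and gave 0.16 (adjusted p = 0.0699) with SRSF7. MKI67, a marker of cycling cells, fell by 0.35 with SRSF7 and gave 0.12 (adjusted p = 0.293) with MYC, while the replication clamp PCNA rose by 0.43 with SRSF7 and gave 0.09 (adjusted p = 0.325) with MYC. The PCNA difference was lost in 10 of the 12 fits without 1 library. The MKI67 difference of 0.47 (edgeR adjusted p = 0.0178) was lost without MYC-OE 3 (0.43, adjusted p = 0.0547). In cholesterol and fatty acid synthesis 3 of 20 rose and 1 fell with MYC, 3 rose with SRSF7 and 3 had a lower difference. IDI1, an isoprenoid isomerase, rose by 0.31 with SRSF7 and gave -0.16 (adjusted p = 0.158) with MYC. Its difference of -0.47 (edgeR adjusted p = 0.0205) was lost without MYC-OE 3 (-0.43, adjusted p = 0.0609), without 1xSRSF7 2 (-0.45, adjusted p = 0.0514), without 1xSRSF7 3 (-0.46, adjusted p = 0.0552) and with upper-quartile scaling (-0.41, adjusted p = 0.0818).

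**Figure D5:**
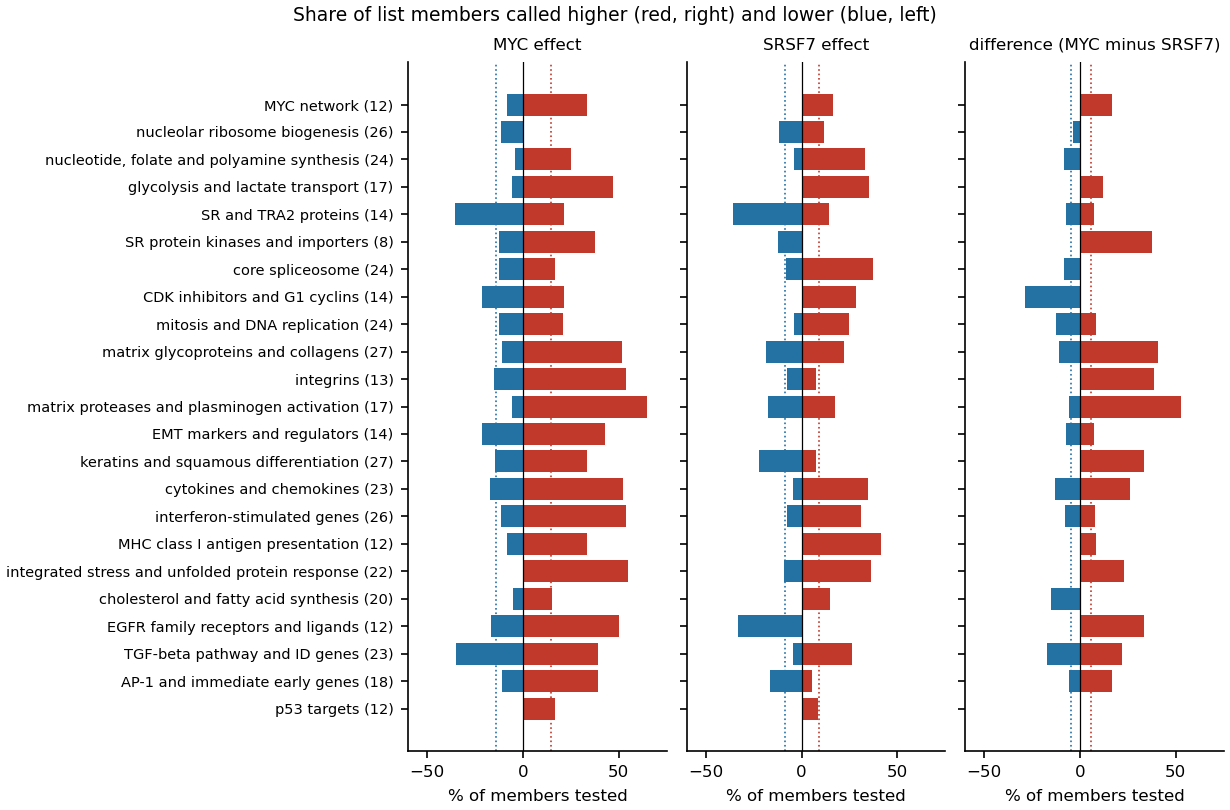
Share of each list's tested genes that was called higher (red, to the right) or lower (blue, to the left), in percent, for the MYC effect, the SRSF7 effect and their difference; dotted lines mark the same shares over all genes tested, 14.8 and 14.3%, 9.22 and 8.84%, and 5.78 and 4.67%. The higher differences of matrix, protease, integrin, keratin, EGF family and SR kinase genes extend farthest past the dotted line.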

How the data were processed

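The 12 libraries are 3 each of 3XCTL, MYC-OE, 1xCtrl and 1xSRSF7, from 2 tables of whole-number read counts per gene that the authors deposited unscaled. The submitters' processing notes name Trimmomatic 0.39, STAR, StringTie 2.1.3b and GRCh38.p13, with no role; the counting rule, strand setting and annotation release are not given in the sources used here. The sources do not say whether a read pair counted once. Groups and replicate numbers come from the titles. The members and gene lists were chosen with earlier results of these data known.

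Counts were fitted once over all 12 libraries with edgeR 4.0.16 in R 4.3.3 (filterByExpr with minimum count 10 and minimum total 15, TMM, robust quasi-likelihood F test, two-sided, 8 residual degrees of freedom). Benjamini-Hochberg adjustment ran over 24271 genes with a threshold of 0.05. The standard error of a log2 value is its size over the square root of F, and intervals are 95%. These intervals rest on the spread between libraries, whereas the limits from 3 counts cover counting error only. The fit was tested on simulated data that held no GC shift between libraries and no gap between the controls. There a 2-fold change in MYC-OE alone was called as a difference, with the right sign, for 37.1% of 200 genes (71.4% at 5 CPM or more). A 2-fold change in both was called in both the same way for 41.1% (85.2% at 5 CPM or more). Of 79 difference calls 8.86% were false, and with no gene changed 0 were called. A difference that was not called therefore does not show equal effects. False calls that such shifts or gaps may bring to the measured libraries were not tested. Levels are CPM from TMM-scaled library sizes. Positions, exon overlaps and GC came from GENCODE 29 (GRCh38).

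Genes named by rule had a symbol, a mean of at least 5 CPM and at most 10% of exon bases shared on the same strand. They are the targeted genes, the most extreme genes of each class (shared, differing, opposite, larger in SRSF7, different in size) and the extremes of each list. Further list members were picked after their values were seen, outside these limits for VIM, KRT1, TNC, CCL5 and CCL20 (below 5 CPM) and ASNS (shared exon bases). Alternatives were other scalings, filters and tools (DESeq2 1.42.0, limma-voom with limma 3.58.1), all 21 libraries, a replicate block, a minimum change, thinning, GC trend removal and leaving out each library. Leaving out both second control libraries, and the TGANTCA search, were added after seeing the data.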

Additional observations from a re-analysis of the deposited data

Results flagged for a closer look

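The MYC effect and the SRSF7 effect differed, by the test of the difference itself in edgeR, with opposite signs that were each called, for 8 genes named by the rule. All adjusted p-values below are for that difference, and no cause was tested. Differences in favour of MYC were 3.50 on the log2 scale for SPRR3 (adjusted p = 2.83e-05), 3.41 for ASPRV1 (adjusted p = 1.33e-07), 1.99 for MMP1 (adjusted p = 2.44e-06) and 1.77 for NPFFR2 (adjusted p = 4.02e-06). Differences in the other direction were -2.08 for LCN2 (adjusted p = 2.9e-05), -1.34 for CXXC5 (adjusted p = 0.000705), -1.19 for ANKRD1 (adjusted p = 0.000588) and -1.17 for PLAAT3 (adjusted p = 7.51e-05). In each of the 8 genes the 3 overexpressing libraries did not overlap the 3 controls in either table. Over all genes, groups did not overlap for 47% in the MYC comparison and 33.7% in the SRSF7 comparison. The 8 were chosen by calls in both effects, so the lack of overlap is no separate support. The gap between the overexpressing lines (1xSRSF7 relative to MYC-OE) was -3.02 for SPRR3 and -2.88 for ASPRV1, against 0.48 and 0.53 between the controls (1xCtrl relative to 3XCTL). For NPFFR2 and MMP1 the gap between the controls was 1.73 and 1.65, and between the lines -0.04 and -0.34.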

How the results depend on the processing

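Counts of calls depended on the setting, and unless a setting is named below every count of differences, effects called, shared genes and opposite genes stayed within 1.5 times its reported value. The causes of the changes were not tested. Upper-quartile scaling left 632 lower differences. A minimum absolute log2 value of 1 left 175 differences (152 higher, 23 lower), 640 MYC calls, 22 SRSF7 calls, 20 genes moving together, 14 of them without a called difference, and 0 opposite. With the GC trend removed there were 5353 differences (2647 higher, 2706 lower), 7535 SRSF7 calls, 4289 genes moving together, 3142 of them without a called difference, and 628 opposite. Without both second control libraries these were 5705 (2755 and 2950), 7863 SRSF7 calls and 665 opposite. Leaving out 1 library gave 1739 to 3792 differences, 706 to 1816 lower ones, 2583 to 6425 SRSF7 calls, 1586 to 3347 genes moving together, 1290 to 2670 of them without a called difference, and 106 to 358 opposite.

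The labels do not say whether same-numbered libraries were handled together. Their deviations from the group means had correlations of -0.0433 to 0.00881 for MYC-OE and 3XCTL and -0.192 to -0.024 for 1xSRSF7 and 1xCtrl. With 3 libraries per group, and 1 control library standing apart in each table, these values cannot settle it. The replicate block left 1121 differences (695 higher, 426 lower), 2375 SRSF7 calls, 1338 genes moving together, 1119 of them without a called difference, and 83 opposite. The block with the GC trend removed gave 4168 differences, 2080 lower, and 452 opposite.

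Of 122 named genes 75 had a called difference, and 63 of these kept it under every alternative apart from the minimum change; 12 lost it under some. Of the 47 without a called difference 23 stayed uncalled and 24 gained a call under at least 1 alternative, among them NGFR, TNNT1, LINC02474 and MUC16 of the genes that moved together. Signs turned only for differences that were not called. JPH3 became -0.0749 and LRG1 -0.177 without both second controls, and SPRY4 0.0826. SPRY4 became 0.0361 with upper-quartile scaling. CXCL8 became 0.0282 with the GC trend removed, 0.0284 with the block too and 0.0473 without both second controls. EGF became -0.0253 with total counts, -0.0049 with no filter, -0.0045 with limma-voom, -0.0018 with the block, -0.0007 thinned, -0.0198 with the GC trend removed and -0.0195 with both. With 1 library left out at a time, differences ran from -0.024 to 0.0883 for NPNT, -0.0338 to 0.291 for LRG1, -0.7215 to 0.0018 for SLC16A3, -0.2858 to 0.0451 for MCM2, -0.1684 to 0.0593 for CXCL8. They ran from -0.2997 to 0.0482 for ERBB2, -0.0497 to 0.0775 for EGF, -0.1337 to 0.0747 for SPRY4, -0.2053 to 0.2173 for CCL20 and -0.0368 to 0.2046 for IFIT3. Levels at or below 0.00978 to 0.0169 CPM, that of 3 counts, could not be told from 0.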
